A study of Homo sapiens with 16 samples.

Results

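The D-type cyclins, their kinase CDK6 and the CDK inhibitors of the CIP/KIP and INK4 families were followed as a group of 10 genes, CCND1, CCND2, CCND3, CDK6, CDKN1B, CDKN1C, CDKN2A, CDKN2B, CDKN2C and CDKN2D. They were taken by gene symbol from a table of 25221 genes, and all 10 had a row in it. The study treated 2 human leukemia cell lines with Ro 08-2750 (Ro), a small molecule that inhibits RNA binding by Musashi-2 (MSI2). MOLM13 is an acute myeloid leukemia line that carries the MLL-AF9 fusion and K562 is a BCR-ABL-positive line with erythroid traits, derived from the blast crisis of a chronic myeloid leukemia. Cells of each line received Ro at 20 μM for 4 h, or its solvent DMSO alone, and both arms contained 0.1% DMSO. Each line gave 4 numbered pairs of a DMSO and a Ro library, 16 libraries in all, and each line stands for its disease as a single cell line. RNA was read from the 3′ end of transcripts. The labels give a passage range of 8 to 12 for MOLM13 and 12 to 18 for K562, but no passage for a single library. They do not say what the members of a pair share or whether pairs were separate cultures. The p-values therefore measure the spread between these libraries, which may be technical.

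D-type cyclins bind CDK4 and CDK6, and the complexes phosphorylate the retinoblastoma protein, which releases E2F factors and lets a cell pass from G1 into S phase. The INK4 proteins p16 (CDKN2A), p15 (CDKN2B), p18 (CDKN2C) and p19 (CDKN2D) bind CDK4 and CDK6 and block their pairing with D cyclins. The CIP/KIP proteins p27 (CDKN1B) and p57 (CDKN1C) act on cyclin-CDK complexes more broadly, including those of CDK2. CDK6 is the D cyclin partner best known from blood cells, and p27 is a known brake on the division of blood progenitors.

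Depth ran from 3143129 to 43571060 counts per library with a median of 20986358. K562 DMSO libraries 2 and 4 were the shallowest, with 3143129 and 4383241 counts, and they were also the least like the other libraries of their group (Pearson r of log2 CPM across genes 0.958 and 0.947, against 0.975 to 0.993 for the other 14). The share of all counts that fell on a single unnamed locus, LOC100507412, ranged from 0.269% in K562 DMSO library 4 to 24.3% in MOLM13 Ro library 1. It was 4.11% to 24.3% in MOLM13 and at most 6.44% in K562. Within MOLM13 it was highest in pair 1 (22.3% with DMSO and 24.3% with Ro) and lowest in pair 4 (4.11% and 6.29%). The lines carried their labelled identity: 7 of 10 myelomonocytic markers were higher in every MOLM13 library than in any K562 library (summed level 620 to 767 CPM against 149 to 298 CPM), and 8 of 10 erythroid markers were higher in every K562 library (1532 to 2919 CPM against 6.35 to 9.69 CPM). Of the defining markers, HOXA10 was listed at 0 in MOLM13 and HBE1 at 0 in K562. The others that did not separate the lines were LYZ and CD33 of the myelomonocytic markers and EPOR of the erythroid ones. LYZ lay at 14.1 to 33.5 CPM in MOLM13 and 7.82 to 31.9 CPM in K562, and CD33 at 8.67 to 24.8 and 8.80 to 17.9 CPM. Levels are given as CPM, which is counts scaled to a common library total by TMM factors. A 3′ library is designed to give 1 tag per transcript whatever its length, so levels were compared between genes without a length correction. How reads were assigned to genes is not known. The order of genes is therefore that of the listed counts and may differ from that of the transcripts.

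CDK6 had the highest listed level of the 10 genes in MOLM13, and CCND3 and CDK6 led in K562. In MOLM13 DMSO libraries the mean level was 536 ± 80.7 CPM for CDK6, 206 ± 70.5 for CCND2, 204 ± 49.5 for CCND3, 77.1 ± 10.7 for CDKN2C, 35.3 ± 15.6 for CDKN1B, 28.3 ± 19.8 for CDKN2D, 2.15 ± 0.941 for CCND1 and 0.629 ± 0.337 for CDKN1C (SD, n = 4). Of the neighbours in that order, CCND2 and CCND3 overlapped, as did CDKN1B and CDKN2D, and the other neighbours did not. In K562 DMSO libraries the order was CCND3 with 179 ± 41.8 CPM, CDK6 with 172 ± 73.2, CCND2 with 66.0 ± 34.1, CDKN2C with 51.8 ± 7.69, CDKN1C with 38.3 ± 10.9, CDKN1B with 22.4 ± 4.00, CDKN2D with 9.21 ± 2.09 and CCND1 with 1.07 ± 0.241 (SD, n = 4). From CCND3 to CDKN1C each gene overlapped the next, while CDKN1B, CDKN2D and CCND1 stood apart from their neighbours. CDKN2A and CDKN2B were listed at 0 in all 16 libraries.

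**Figure D1:**
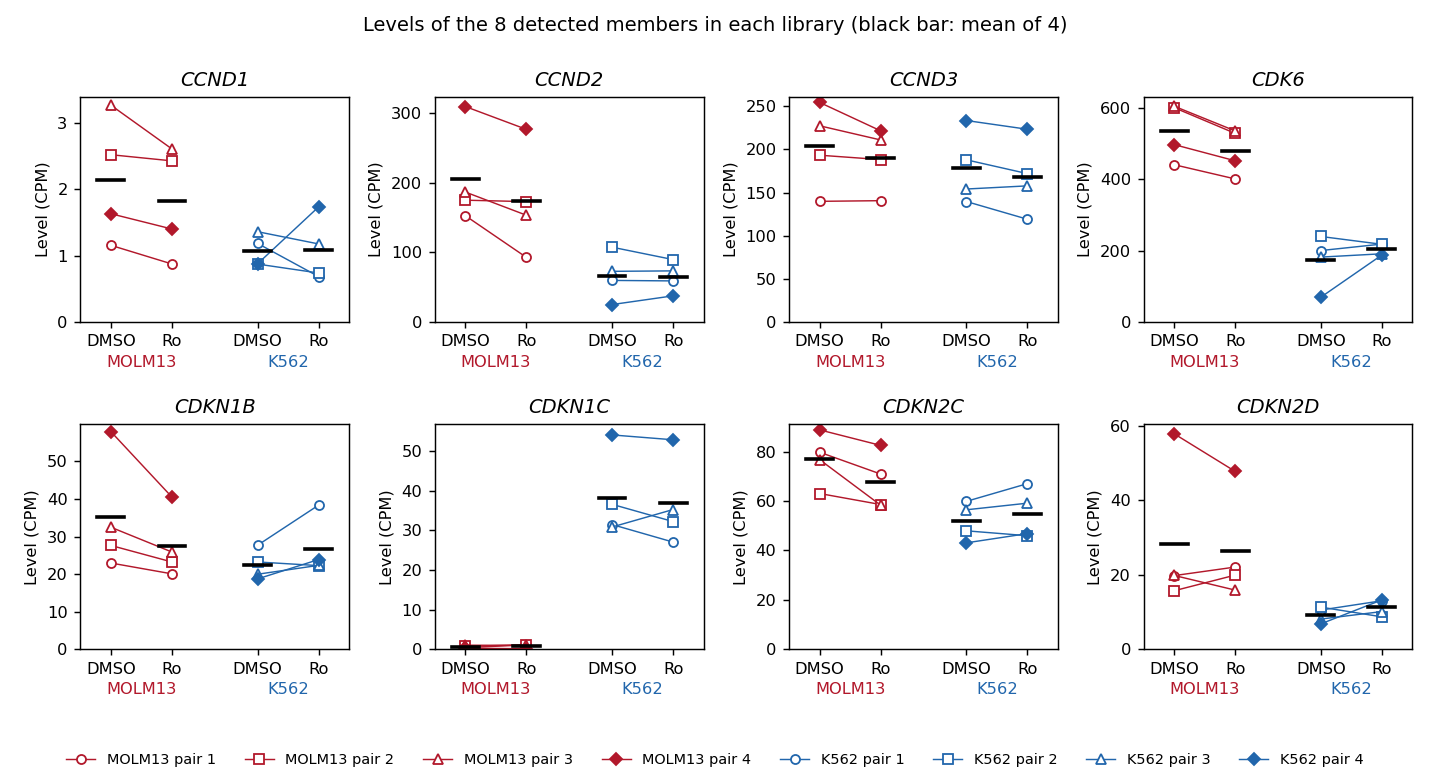
Level of each of the 8 detected genes (y axis, CPM after TMM scaling, linear from 0) in the DMSO and Ro libraries of MOLM13 (red) and K562 (blue). Each symbol is 1 library, lines join the libraries of a pair, filled diamonds are pair 4 and black bars are means of 4. CDK6 lies at 401 to 605 CPM in MOLM13 and at 68.8 to 239 CPM in K562, and CDKN1C is at 1.15 CPM or less in MOLM13 and at 27.1 CPM or more in K562.

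The lines were compared first in DMSO. Among the 8 members that were tested, 5 were higher and 1 was lower in MOLM13 than in K562 by edgeR's quasi-likelihood test at an adjusted p under 0.05, against 21.1% of all 15268 genes higher and 20.3% lower. For 5 of the 8, no library of one line reached into the range of the other, against 39.4% of all genes. The line is confounded with everything else that differs between these cultures, the passage range included. A lower level in these bulk libraries cannot be told apart as fewer expressing cells or as less RNA per cell.

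CCND2 (chromosome 12, 4273762 to 4305353, GRCh38.p14), a D cyclin used widely in blood progenitors, was among the members that were higher in MOLM13. Its levels were 153, 175, 186 and 309 CPM in MOLM13 DMSO libraries 1 to 4, and 59.4, 107, 72.5 and 24.7 CPM in those of K562. The lines did not overlap, the highest value was that of MOLM13 library 4 and the lowest that of K562 library 4. The log2 difference was 1.65 (SE 0.38, edgeR adjusted p = 0.00302). CCND3, a D cyclin with known roles in lymphoid and erythroid cells, overlapped between the lines, with 140 to 255 CPM in MOLM13 and 140 to 234 CPM in K562, and its log2 difference was 0.20 (SE 0.25, edgeR adjusted p = 0.563). The sign of the CCND3 difference turned with total-count scaling (-0.23), which moved the median of all genes from -0.0047 to -0.41. CCND1, the D cyclin best known from solid tumours and mantle cell lymphoma, was near the limit of detection in both lines, with 3 to 66 counts per library. Its log2 difference was 0.94 (SE 0.35, edgeR adjusted p = 0.0464) although the lines overlapped, with 1.16 to 3.27 CPM in MOLM13 and 0.872 to 1.36 CPM in K562. That call was lost without MOLM13 library 2 (edgeR adjusted p = 0.107) or 3 (0.170), and without K562 library 1 (0.108), 2 (0.0685), 3 (0.0670) or 4 (0.0691). It was also lost with total-count scaling.

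CCND2 and CCND3 together made up nearly all of the D cyclin reads. In MOLM13 DMSO libraries CCND2 gave 44.7% to 54.7% of the reads of the 3 genes and CCND3 gave 45.0% to 54.5%. In K562 DMSO libraries CCND2 gave 36.2% or less and CCND3 gave 63.5% to 90.1%. K562 pair 4 was the extreme in both arms, with CCND2 at 9.53% in DMSO and 14.2% with Ro, while K562 pairs 1 to 3 lay between 29.7% and 36.2%. CCND1 stayed at 0.785% or less in all 16 libraries. The summed level of the 3 genes was 294 to 566 CPM in MOLM13 DMSO libraries and 200.2 to 296 CPM in K562 DMSO libraries.

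**Figure D2:**
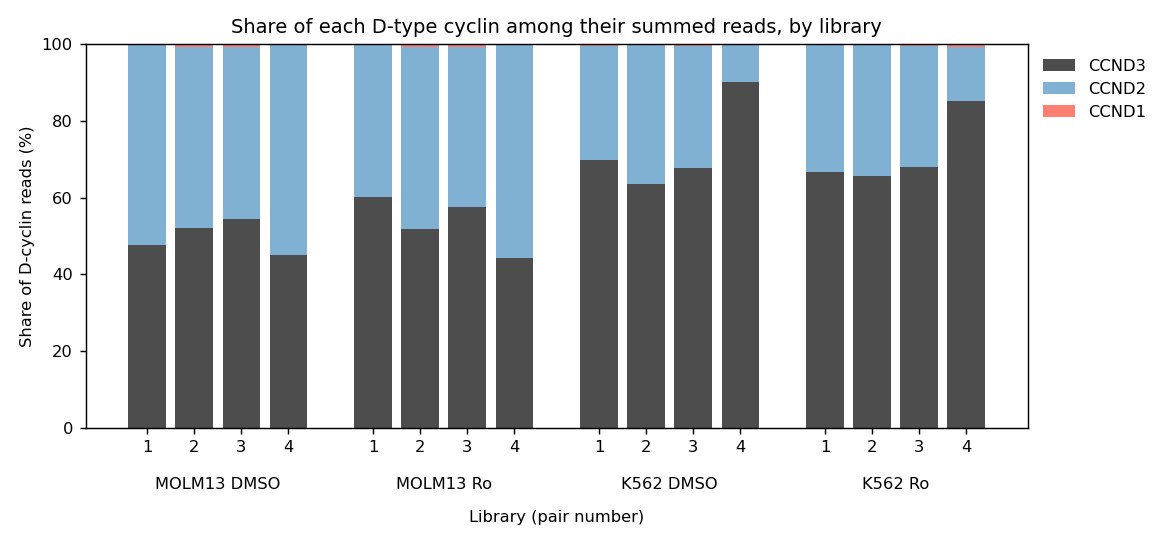
Share of CCND3, CCND2 and CCND1 (y axis, % of the summed reads of the 3 genes) in each of the 16 libraries (x axis, pair number within group). CCND2 holds 39.6% to 55.4% in the 8 MOLM13 libraries and 9.53% to 36.2% in the 8 K562 libraries, and the lowest CCND2 shares are those of K562 pair 4.

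CDK6 (chromosome 7, 92604921 to 92836573), the catalytic partner of the D cyclins, was measured at 441, 601, 605 and 497 CPM in MOLM13 DMSO libraries 1 to 4. It was at 200, 239, 181 and 68.8 CPM in K562 DMSO libraries 1 to 4. The lines did not overlap, and K562 library 4 lay below the other 3 K562 libraries. The log2 difference was 1.64 (SE 0.32, edgeR adjusted p = 0.00107), and it was 1.38 (adjusted p = 0.000126) without K562 library 4. The 3 genes whose log2 CPM followed CDK6 most closely over the 16 libraries were EIF3E (Pearson r 0.982), BCL7A (0.981) and TRNT1 (0.981) of 16224 genes. The 16 points include both lines and K562 DMSO library 4, the low one for CDK6.

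The inhibitor CDKN1C (p57), an imprinted gene at chromosome 11, 2883218 to 2885775, went against the rest of the group. Its levels were 0.433, 0.753, 1.04 and 0.286 CPM in MOLM13 DMSO libraries, which rest on 3, 17, 21 and 10 counts, and 31.5, 36.6, 30.9 and 54.1 CPM in K562 DMSO libraries. Every K562 library was far above every MOLM13 library, and the log2 difference was -5.90 (SE 0.39, edgeR adjusted p = 6.58e-08). Its relative CDKN1B (p27, chromosome 12, 12717368 to 12722369) overlapped between the lines, with 23.0, 27.6, 32.5 and 57.9 CPM in MOLM13 and 27.7, 23.2, 20.0 and 18.7 CPM in K562. The CDKN1B difference was 0.67 (SE 0.28, edgeR adjusted p = 0.0770). It passed the threshold without MOLM13 library 1 (0.83, adjusted p = 0.0383) and was 0.32 without MOLM13 library 4, the highest of the 8.

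Of the INK4 inhibitors, CDKN2D (p19, chromosome 19, 10566460 to 10568979) was higher in MOLM13, with 19.8, 15.7, 19.8 and 57.9 CPM against 10.5, 11.3, 8.13 and 6.83 CPM in K562. The lines did not overlap, and MOLM13 library 4 stood far above its group. The log2 difference was 1.64 (SE 0.39, edgeR adjusted p = 0.00404), and 1.02 (adjusted p = 0.00341) without that library. CDKN2C (p18, chromosome 1, 50960745 to 50974634), which is also a regulator of blood stem cell division, was at 79.7, 63.0, 76.7 and 88.8 CPM in MOLM13 and at 59.9, 47.9, 56.5 and 43.1 CPM in K562, with no overlap. Its log2 difference was 0.57 (SE 0.20, edgeR adjusted p = 0.0353). The CDKN2C call was lost without MOLM13 library 1 (edgeR adjusted p = 0.0684) or 3 (0.0761) and without K562 library 2 (0.0558) or 3 (0.0544). In those fits the difference stayed between 0.50 and 0.67. With total-count scaling, 3 members were called higher and 1 lower in MOLM13, and CDKN2C was not among them.

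With Ro in place of DMSO, where 26.8% of 15346 genes were higher and 27.5% lower in MOLM13, 4 of the 6 calls between the lines were made again, for CDK6 (log2 difference 1.24, edgeR adjusted p = 2.32e-05), CCND2 (1.43, 0.00172), CDKN2D (1.23, 0.00385) and CDKN1C (-5.47, 1.17e-07). CCND1 (0.72, adjusted p = 0.129) and CDKN2C (0.31, 0.159) did not pass there.

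**Figure D3:**
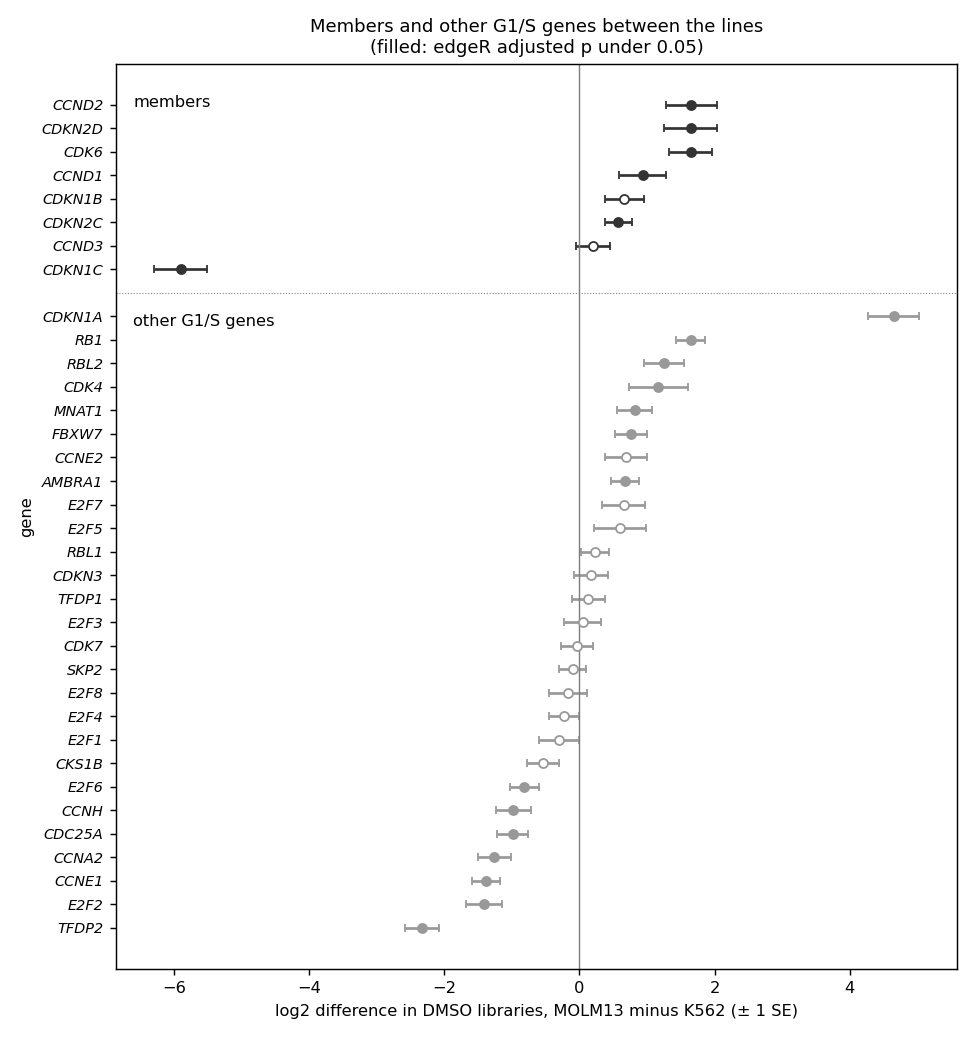
log2 difference between MOLM13 and K562 DMSO libraries (x axis, above 0 is higher in MOLM13, bars are 1 SE) for the 8 tested members (upper block) and 27 other G1/S genes (lower block), sorted within blocks, with filled points at an edgeR adjusted p under 0.05. CCND2, CDKN2D and CDK6 lie together near 1.65 and CDKN1C lies at -5.90.

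CDKN2A and CDKN2B, which encode p16 (with p14ARF from the same locus) and p15, lie side by side at chromosome 9, 21967752 to 21995324 and 22002903 to 22009313 (GRCh38.p14). Neither had a read in any library, which allows up to 3 counts, or 0.0670 to 0.872 CPM on the same scale depending on the library. The neighbouring MTAP and CDKN2A-AS1 were also listed at 0 in all 16 libraries, while CDKN2B-AS1, a long antisense RNA whose span contains the whole of CDKN2B, had 78 to 2696 counts per library and was counted in both lines. In this table a listed 0 was frequent for genes inside another gene: 688 of 915 protein-coding genes that lie wholly within another gene's span (75.2%) were at 0 in all 16 libraries, against 1069 of 12810 that overlap none (8.35%). CDKN2B is of the first kind. CDKN2A overlaps CDKN2B-AS1 in part only, and of partly overlapping genes 269 of 5189 (5.18%) were at 0. The last 300 bases of CDKN2A, from which 3′ tags arise, are not shared with another gene in GENCODE 29. By the RefSeq positions CDKN2A-AS1 ends at 21967754, a few bases inside the CDKN2A end at 21967752. The last 300 bases of MTAP are not shared with another gene in GENCODE 29 either, and why MTAP was at 0 was not tested. Copy number of the locus was not tested, and transcripts for p16 and p14ARF end at the same place and could not have been separated. For CDKN2B, a listed 0 therefore does not show that the gene was without transcripts in these cells. For CDKN2A, no overlap beyond those few bases with CDKN2A-AS1 was found at its end, and why it was at 0 was not tested.

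Ro was then compared with DMSO within each line. In MOLM13 no member passed the threshold when the pair number was ignored: edgeR called 0 of 15031 genes (1.16% had an unadjusted p under 0.05, none of the 8 members among them) and DESeq2 called 1 gene, no member. The Ro and DMSO ranges overlapped for all 8 members, and 1.35% of all genes were free of overlap. The fitted differences of the members lay between -0.35 and 0.42 with standard errors of 0.14 to 0.59, so changes of this size were not detectable against the spread between pairs.

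Libraries of a pair deviated together, so the pair number was then used as a block. With it, edgeR called 317 of the 15031 genes (0.938% higher and 1.17% lower with Ro), and 1 of the 8 members was among them. Of the 8 members, 5 were lower with Ro in all 4 pairs (CCND1, CCND2, CDK6, CDKN1B and CDKN2C), as were 14.9% of all genes. No member was higher in all 4 pairs, as were 10.2% of all genes. With the block 4 of the 8 had an unadjusted p under 0.05 in the lower direction, as had 9.65% of all genes. The median of the 8 blocked differences was -0.16, and that of all genes was 0.00.

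CDKN1B was the member that passed. Its levels in MOLM13 went from 23.0, 27.6, 32.5 and 57.9 CPM with DMSO to 20.1, 23.2, 25.9 and 40.5 CPM with Ro in pairs 1 to 4. All 4 pairs were lower with Ro, with log2 changes of -0.19, -0.25, -0.33 and -0.52, yet the arms overlapped because pair 4 was high in both. The blocked difference was -0.32 (SE 0.084, edgeR adjusted p = 0.0457), and without the block it was -0.35 (SE 0.30, adjusted p = 1.00). The call rested on having all pairs and on the tool: the adjusted p was 0.0567 by DESeq2 with the block, and in edgeR it was 0.0722, 0.0824, 0.256 and 0.173 without pairs 1, 2, 3 and 4.

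CDK6 in MOLM13 went from 441, 601, 605 and 497 CPM with DMSO to 401, 529, 536 and 452 CPM with Ro. The change was nearly the same in every pair (-0.14, -0.18, -0.18 and -0.14), while the arms overlapped. The blocked difference was -0.14 (SE 0.064, unadjusted p = 0.0356, edgeR adjusted p = 0.250). CCND2 went from 153, 175, 186 and 309 CPM to 92.6, 173, 153 and 277 CPM, and its change was unequal between pairs (-0.72, -0.02, -0.28 and -0.16). The blocked CCND2 difference was -0.27 (SE 0.087, unadjusted p = 0.00534, edgeR adjusted p = 0.110), and it was -0.14 without pair 1. Without the block and without DMSO library 4, the CCND2 difference was 0.02.

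CDKN2C had changes of -0.17, -0.11, -0.40 and -0.11 in MOLM13 pairs 1 to 4, from 79.7, 63.0, 76.7 and 88.8 CPM to 70.9, 58.6, 58.3 and 82.5 CPM, and pair 3 had the largest change. Its blocked difference was -0.18 (SE 0.073, unadjusted p = 0.0232, edgeR adjusted p = 0.205). The other members lacked a common direction over the pairs or moved little. CCND3 changed by 0.01, -0.04, -0.11 and -0.20, CDKN2D by 0.16, 0.34, -0.32 and -0.28, and CDKN1C, at 3 to 22 counts per library, by 1.21, 0.55, -0.04 and -0.63. CCND1, at 8 to 66 counts per library, changed by -0.37, -0.05, -0.32 and -0.21, and its blocked difference was -0.21 (SE 0.21, edgeR adjusted p = 0.656).

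**Figure D4:**
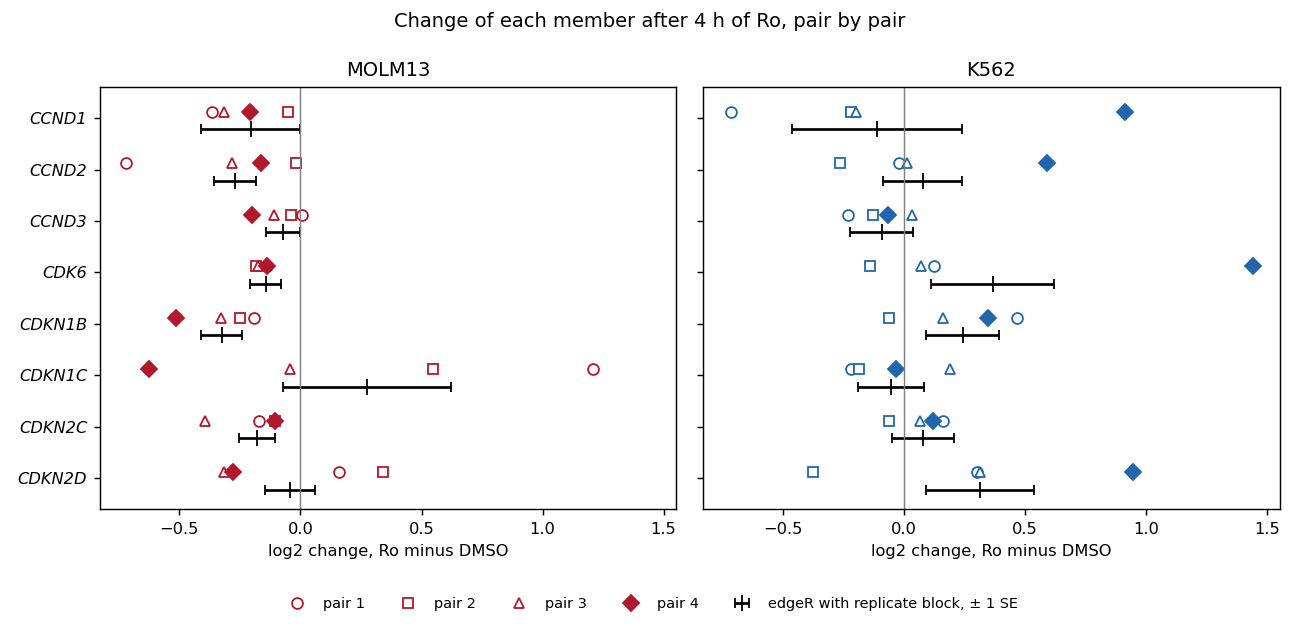
Change of each member with Ro (x axis, log2 CPM of the Ro library minus that of the DMSO library of the same pair) in MOLM13 (left) and K562 (right), with 1 symbol per pair and, under the symbols, the edgeR difference with the pair number as a block and 1 SE. In MOLM13 the 4 CDK6 symbols lie between -0.18 and -0.14 and the CDKN1B symbols between -0.52 and -0.19, while in K562 pair 4 (filled) lies far to the right for CDK6, CDKN2D, CCND1 and CCND2.

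In K562, no member passed with Ro by any test run. EdgeR called 0 of 15227 genes with or without the block (unadjusted p under 0.05 for 1.23% without it and 2.11% with it, no member in either), and DESeq2 called 0 genes without the block and 2 genes with it, no member. The Ro and DMSO ranges overlapped for all 8 members, and 1.25% of all genes were free of overlap. No member was higher in all 4 pairs (6.84% of all genes) or lower in all 4 (4.64%).

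CDK6 in K562 was at 200, 239, 181 and 68.8 CPM with DMSO and at 218, 217, 191 and 188 CPM with Ro. The 4 Ro libraries lay close together, and the DMSO value of pair 4 was the low one. The pair changes were 0.13, -0.14, 0.07 and 1.44. The CDK6 difference was 0.25 (SE 0.30, edgeR adjusted p = 1.00), 0.37 (SE 0.25, adjusted p = 0.947) with the block, and -0.01 without DMSO library 4. That low value was built on 393 counts, while the shallower K562 DMSO library 2 gave the highest value of its group, 239 CPM on 824 counts. Why DMSO library 4 was low was not tested.

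CDKN1B in K562 was at 27.7, 23.2, 20.0 and 18.7 CPM with DMSO and 38.4, 22.3, 22.3 and 23.9 CPM with Ro, with changes of 0.47, -0.06, 0.16 and 0.35. Ro libraries 2 to 4 lay together and library 1 was high, and DMSO library 1 was also the highest of its arm. The difference was 0.25 (SE 0.21, edgeR adjusted p = 1.00), and 0.24 (SE 0.15, adjusted p = 0.947) with the block. Without Ro library 1 it was 0.01, in a fit without the block that kept DMSO library 1. CDKN2D, at 6.83 to 13.3 CPM, changed by 0.30, -0.37, 0.32 and 0.95. CDKN1C, which was abundant in K562, changed by -0.22, -0.18, 0.19 and -0.03, and CDKN2C by 0.16, -0.06, 0.07 and 0.12. CCND2 changed by -0.02, -0.26, 0.01 and 0.59, CCND3 by -0.23, -0.13, 0.03 and -0.06, and CCND1 by -0.71, -0.22, -0.20 and 0.91. Pair 4 was the highest of the 4 changes for CCND1, CCND2, CDK6 and CDKN2D, and its DMSO library was 1 of the 2 shallow ones. In K562 pairs 1 and 3 alone, which exclude both shallow libraries, CDKN1B differed by 0.31 (SE 0.11, edgeR adjusted p = 0.114). None of the 7 members tested passed there, while 418 of 13667 genes did. That fit had 2 libraries per arm and the block, which leaves very little to estimate the spread, so its SE and calls are weakly founded. With the block and without pair 4 only, edgeR called 0 of 14634 genes.

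The difference in the Ro response between the lines was tested directly in all 16 libraries. No gene of 16224 passed. Before adjustment 1.34% lay under 0.05, and in the fit that used the block 6.01% did. For CDKN1B the Ro change in MOLM13 was lower than that in K562 by -0.61 on the log2 scale (SE 0.39, edgeR adjusted p = 1.00), and with the block by -0.57 (SE 0.16, unadjusted p = 0.00379, edgeR adjusted p = 0.766). For CDK6 it was -0.40 (SE 0.37, adjusted p = 1.00) and with the block -0.52 (SE 0.28, adjusted p = 0.766). The fall of CDKN1B in MOLM13 is therefore not shown to differ from K562 after correction.

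The rest of the G1/S machinery was taken from a list of 29 genes, and 28 were tested in MOLM13 and 27 in K562. CDK2 was listed at 0 in all 16 libraries, and CDK4, the second partner of D cyclins, was at 0.240 to 2.27 CPM. The last 300 bases of CDK2 overlap PMEL and those of CDK4 overlap TSPAN31 in GENCODE 29, and of protein-coding genes with such an overlap 27.6% were at 0 in all libraries, against 6.92% of those without it. The levels of these 2 kinases relative to CDK6 therefore cannot be read from this table. In MOLM13, with the block, 1 of the 28 genes of the list rose and 1 fell with Ro, against 0.938% and 1.17% of all genes. CDKN1A (p21), the CIP/KIP inhibitor induced by p53, went from 41.3, 99.8, 108 and 103 CPM to 53.3, 153, 162 and 206 CPM, higher in 4 of 4 pairs. Its blocked difference was 0.68 (SE 0.084, edgeR adjusted p = 8.32e-05), opposite in sign to that of its relative CDKN1B. CDKN3, a phosphatase that acts on CDK2, went from 27.3, 28.3, 26.6 and 40.9 CPM to 18.2, 19.8, 19.7 and 30.1 CPM, lower in 4 of 4 pairs (-0.47, SE 0.083, edgeR adjusted p = 0.00330). Neither passed without the block (adjusted p = 1.00 for both).

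RB1, the substrate of the D cyclin kinases, differed by 0.14 (SE 0.074, edgeR adjusted p = 0.348) with the block in MOLM13 and by 0.20 (SE 0.13, adjusted p = 0.947) in K562. CCNE1, the cyclin E that acts with CDK2 after the D cyclins, differed by 0.10 (SE 0.11, adjusted p = 0.690) and -0.10 (SE 0.12, adjusted p = 0.947), and CCNE2 by 0.06 (SE 0.091, adjusted p = 0.799) and 0.32 (SE 0.26, adjusted p = 0.947). In K562 no gene of the list passed. Their differences were above 0 for 23 of 27 genes without the block (median 0.17, against 54.2% of all genes above 0 and a median of 0.02), and for 16 of 27 without DMSO library 4 (against 52.6% of all genes), the library that was also low for CDK6. Within pairs, they were above 0 for 19 of 26 genes without pair 4 (against 50.2% of all genes) and for 19 of 26 in pairs 1 and 3 alone (against 51.0%). Between the lines in DMSO, 7 of 27 genes of the list were higher and 7 lower in MOLM13, against 21.1% and 20.3% of all genes. RB1 was higher there (log2 difference 1.65, SE 0.22, edgeR adjusted p = 3.72e-05), as was CDKN1A (4.65, SE 0.38, 3.78e-07). CDK4, on 3 to 33 counts per library, passed (1.17, SE 0.44, 0.0480) but did not by DESeq2 (adjusted p = 0.0604). CCNE1 was lower (-1.38, SE 0.20, 9.64e-05). CCNE2 did not pass (0.69, SE 0.31, 0.0955).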

How the data were processed

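The authors made 3′ mRNA libraries (QuantSeq FWD kit) from total RNA and deposited 1 table of raw read counts per gene for all 16 libraries. Per the submitters' processing notes, reads were trimmed with Trim Galore and aligned to hg38 with STAR 2.5.3a and handled with SAMtools 1.5. The counting program, its annotation and its strand setting are not given in the sources used here. Counts of genes that overlap on opposite strands may therefore be mixed or dropped.

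Counts were tested with edgeR 4.0.16 (quasi-likelihood, TMM, R 4.3.3) per line, between lines in DMSO libraries and as an interaction over all libraries. Genes needed 10 counts in 4 libraries, and p-values were adjusted by Benjamini-Hochberg over all genes tested with a threshold of 0.05. Each SE of an edgeR fit was derived, as the absolute log2 difference divided by the square root of the F statistic. The scripts were tested on simulated data. The pair numbers come from the sample titles. Same-numbered libraries deviated together within a line (r 0.384 to 0.831 in MOLM13 and 0.110 to 0.417 in K562) but not between lines, so fits with the pair number as a block are given within lines. Depth was 3143129 to 43571060 counts, and the limit for a count of 0 (3 counts) covers counting error only. Alternatives were DESeq2 1.42.0, other scalings, filters and left-out libraries or pairs. Gene positions are those of RefSeq (GRCh38.p14). The gene list, the other G1/S genes (CDK4, CDK2, CCNE1, CCNE2 and RB1 always named, others where they passed with Ro), and the markers were chosen with earlier results of these data known.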

Additional observations from a re-analysis of the deposited data

Results flagged for a closer look

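In 3 of 32 groups of 4 libraries, 1 library lay far from the other 3 by Dixon's test at 95%, which chance alone does in about 1 group in 20. CDKN1B was highest in K562 Ro library 1, at 38.4 CPM, while the rest of that group lay between 22.3 and 23.9 CPM. The DMSO library of the same pair was also the highest of its group, at 27.7 CPM. CDKN2D was highest in MOLM13 DMSO library 4, at 57.9 CPM against 15.7 to 19.8 CPM, and the Ro library of the same pair was also the highest of its group, at 47.8 CPM. CDKN1C was lowest in MOLM13 Ro library 4, at 0.150 CPM, which rests on 3 counts.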

How the results depend on the processing

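Between the lines, the calls for CDK6, CCND2, CDKN2D and CDKN1C held under every alternative run, and 4 to 6 members were called in each. The replicate block there, where the numbers do not pair libraries, left only those 4, as did total-count scaling. The block took the edgeR adjusted p of CDK4 to 0.116. Total-count scaling turned CCND3 to -0.23 and CDKN3 to -0.22, and the Ro libraries turned CDKN3 to -0.38. In MOLM13, Ro against DMSO, the counts turned on the pairing, with 317 genes and 1 member called with the replicate block, 266 genes with DESeq2 and the block, and 1 gene with DESeq2 alone. Within pairs, 0 members passed by DESeq2 or without any 1 pair, and 49 to 358 genes passed without 1 pair. In K562, DESeq2 with the block called 2 genes. Pairs 1 and 3 alone called 418, in a fit with very little left to estimate the spread. The block itself turned CCND2 in K562 to 0.078 (0.070 by DESeq2), and pairs 1 and 3 gave -0.017 for CCND2 and -0.0055 for CDKN1A. No gene whose sign turned had passed the threshold in that comparison.

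Without the block, a fit that leaves out 1 library keeps the other of its pair and also carries differences between pairs. Signs turned in such fits, for which the lowest and highest log2 differences follow. In MOLM13 they were -0.46 and 0.028 for CCND1, -0.54 and 0.024 for CCND2, -0.22 and 0.035 for CCND3, -0.54 and 0.53 for CDKN2D, -0.076 and 0.23 for CCNE1, and -0.12 and 0.19 for CCNE2. In K562 they were -0.38 and 0.11 for CCND1, -0.28 and 0.29 for CCND2, -0.26 and 0.081 for CCND3, -0.012 and 0.44 for CDK6, -0.27 and 0.19 for CDKN1C, -0.053 and 0.14 for CDKN2C, -0.033 and 0.34 for CCNE2, -0.20 and 0.41 for CDKN1A, and -0.061 and 0.25 for CDKN3. Within pairs, leaving out 1 pair gave -0.17 to 0.063 for CDKN2D and -0.023 to 0.10 for CCNE2 in MOLM13, and in K562 -0.42 to 0.14 for CCND1, -0.083 to 0.18 for CCND2, -0.11 to 0.12 for CDKN1A and -0.018 to 0.24 for CDKN3. The causes were not tested. Depth limits CCND1 everywhere and CDKN1C in MOLM13, at 22 counts or fewer for the latter.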
